A study of Caenorhabditis elegans with 12 samples.

Results

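The genes described here encode the FMRFamide-like peptides (flp), the neuropeptide-like proteins (nlp), the PDF-type peptides (pdf) and the peptide SNET-1 of Caenorhabditis elegans. They were chosen by gene name, as every gene of the deposited count table called flp, nlp, pdf or snet with a number, other than 10 nlp genes for antimicrobial peptides (nlp-24, nlp-25 and nlp-27 to nlp-34). The rule found 95 of 46926 genes, made up of 31 flp genes, 61 nlp genes, 2 pdf genes and snet-1. The animals were whole wild-type N2 hermaphrodites, moved as synchronized young adults to agar plates with a compound and collected 48 h later. The 3 groups received bromhexine at 100 µM, genipin at 200 µM, or DMSO, the solvent in which both compounds were given. Plates of all 3 groups also held FUDR, an inhibitor of DNA synthesis used to stop progeny from growing up, so that no group here is free of it. Bromhexine is used in people to thin airway mucus, and genipin, a compound from gardenia fruit, crosslinks proteins. Each group had 4 libraries, and the labels give all 12 the same batch. Nothing in the labels says that the 4 libraries of a group came from separate cultures, so p-values here cover only the variation among these libraries, and that may be technical.

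Neuropeptides are cut from longer precursors by a proprotein convertase, trimmed by a carboxypeptidase, often amidated at the carboxyl end, and packed into dense core vesicles. Release from these vesicles lets them act at a distance, mostly on G protein-coupled receptors, until peptidases such as neprilysins degrade them. FMRFamide-like peptides end in an arginine and an amidated phenylalanine, nlp genes encode the other families, and PDF-1 and PDF-2 are the worm's relatives of the insect pigment dispersing factor. In the worm such peptides adjust feeding, locomotion, egg laying, sleep and fat storage.

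The libraries held 20.3 to 28.1 M counts, of which the neuropeptide genes took 8894 to 15070 counts per library. Levels are given as CPM (counts per 1 M counts of the scaled library) and, between genes, as RPKM (the same per 1 kb of exon). Genipin replicate 1 stood apart from its group: cyp-35B3, a cytochrome P450 gene, had 10.5 CPM there, against 0.35 to 0.937 CPM in the other 3 genipin libraries, and 0 in the DMSO libraries. This is 2.88% of the rise seen with bromhexine. The numbers of genes called in the genipin comparisons are therefore also given without it. Markers of neurons, among them the synaptic genes rab-3 and unc-64, were present in all 3 groups, with none of the 18 at 0.

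The neuropeptide transcripts spanned a wide range of levels, and nlp-40 was far above the rest. The product of nlp-40 is released from the intestine and acts on a neuron of the defecation motor program. Its transcript averaged 261.4 ± 32.4 RPKM with bromhexine, 206.4 ± 15.7 RPKM with genipin and 206.3 ± 12.8 RPKM with DMSO (SD, n = 4 each). The next gene in the order, nlp-36, averaged 94.6 ± 9.42 RPKM with bromhexine, 78.1 ± 9.17 RPKM with genipin and 87.7 ± 7.11 RPKM with DMSO. The 4 DMSO libraries of nlp-40 all lay above those of nlp-36, and those of nlp-36 lay above those of the gene after it. That gene was flp-28, with 36.2 ± 3.59 RPKM with bromhexine, 31.2 ± 4.74 RPKM with genipin and 28.7 ± 5.99 RPKM with DMSO. From flp-28 downward each of the next neighbours in the DMSO order overlapped between libraries: flp-22 (mean 21.5 RPKM), flp-6 (19.4), nlp-20 (16.5), flp-24 (15.9), flp-14 (13.2), nlp-49 (12) and flp-1 (9.82). As a share of the counts of all 95 genes, nlp-40 took 31.1% to 36.7% in bromhexine libraries, 30.8% to 36.2% in genipin libraries and 33.5% to 36.1% in DMSO libraries.

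**Figure D1:**
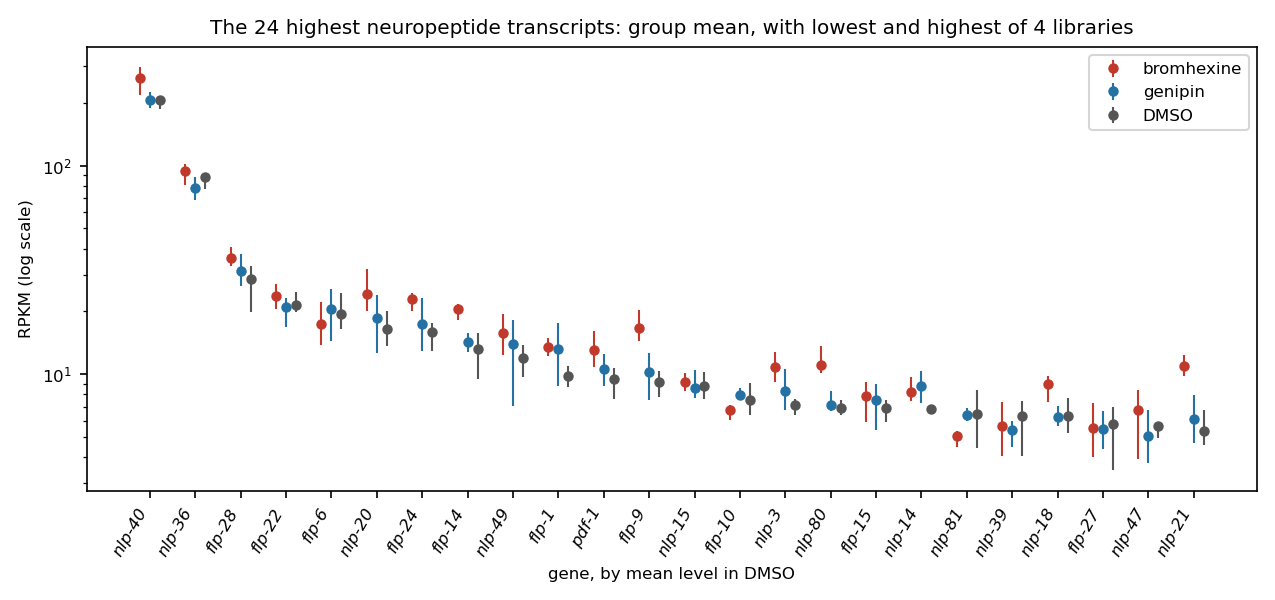
Levels of the 24 neuropeptide genes highest in DMSO, in RPKM on a log scale, for bromhexine, genipin and DMSO from left to right within each gene; points are group means and lines run from the lowest to the highest of 4 libraries. The gene nlp-40 stands above all others in each group, at 261.4, 206.4 and 206.3 RPKM, and in DMSO the ranges of the third to the tenth gene overlap with those of the next gene.

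With bromhexine more neuropeptide transcripts were higher than lower. Of the 95 genes, 83 passed the filter on low counts and were tested, and 26 of these (31.3%) were called higher with bromhexine than with DMSO at an edgeR adjusted p under 0.05, against 19% of all 13695 tested genes. Only 3 (3.61%) were called lower, against 21.8% of all tested genes. The log2 fold change was above 0 in 62 of the 83 (74.7%), against 50.1% of all tested genes. Its median was 0.39, with quartiles of 0.02 and 0.61 and a range from -0.98 to 1.79, where the median of all tested genes was 0.0. Most increases were under 2-fold, and 4 of the 26 had a log2 fold change of at least 1. In 28 genes all 4 bromhexine libraries lay above all 4 DMSO libraries (33.7%, background 16.2%), and in 2 genes all 4 lay below (2.41%, background 19.7%). For 24 of the 26 called higher, the libraries of the 2 groups did not overlap, with flp-11 and nlp-18 as the exceptions. Genes chosen by a small p tend to have groups that lie apart, so this describes the calls and adds no support to them.

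Summed over the 95 genes, the level was 499.7, 583.6, 521.3 and 576.0 CPM in the bromhexine libraries and 448.1, 398.9, 421.6 and 437.9 CPM in the DMSO libraries. The lowest bromhexine sum lay above the highest DMSO sum. Without nlp-40 the sums were 332.6 to 392.7 CPM with bromhexine and 265.2 to 295.7 CPM with DMSO, which again did not overlap. For the 31 flp genes alone they were 142.1 to 170.0 CPM with bromhexine and 113.3 to 125.2 CPM with DMSO. In RNA of whole animals, more RNA per peptidergic cell cannot be told apart from a changed share of RNA from other tissues. Neuron markers moved both ways. Of the 18, 3 were called higher (unc-11, unc-25 and maco-1) and 3 lower (eat-4, snb-1 and unc-119), or 16.7% each way against 19% and 21.8% of all tested genes. Single markers differed by as much as -0.84 ± 0.30 (eat-4) and 0.68 ± 0.20 (unc-25) on the log2 scale. The neuron markers summed to 602.3 to 623.3 CPM with bromhexine and 558.5 to 591.1 CPM with DMSO, ranges that do not overlap. The largest part was maco-1, at 214.7 ± 13.9 CPM with bromhexine and 176.2 ± 15.6 CPM with DMSO. Next came snb-1 (171.0 ± 4.3 and 188.2 ± 3.47 CPM) and unc-11 (107.1 ± 11.2 and 84.5 ± 6.75 CPM). Scarcer markers such as rab-3 (3.48 ± 0.526 and 3.13 ± 0.742 CPM) added little to the sums. Whether the RNA of maco-1, snb-1 and unc-11 came only from neurons was not tested, so the sums do not measure the share of neuronal RNA. Other tissues moved too. Intestine markers summed to 1688 to 1942 CPM with bromhexine and 793.5 to 1037 CPM with DMSO (4 of 7 called higher). The largest single part of these sums was cpr-1, at 1154 ± 113.9 CPM with bromhexine and 390.6 ± 91.8 CPM with DMSO. Without it the sums were 575.5 to 723.0 CPM with bromhexine and 470.7 to 560.7 CPM with DMSO, and elt-2 (-0.04 ± 0.13), act-5 (0.04 ± 0.09) and ifb-2 (0.12 ± 0.09) were not called. Germline markers summed to 4179 to 5324 CPM with bromhexine and 3484 to 4213 CPM with DMSO (7 of 8 higher). Muscle markers summed to 1233 to 1566 CPM with bromhexine and 655.9 to 1177 CPM with DMSO (6 of 8 higher, 1 lower), while 4 of the 6 hypodermis markers tested were called lower. The sums of all 8 hypodermis markers overlapped, at 217.3 to 410.3 CPM with bromhexine and 250.2 to 345.0 CPM with DMSO. Pharynx markers had 1 of 4 tested called higher, and coelomocyte and glia markers 1 of 4 called lower. The part of these tissue shifts in the neuropeptide values was not tested.

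The bromhexine libraries did not rise equally. Among the 26 genes called higher, bromhexine replicate 2 was the highest of its group in 14 and bromhexine replicate 3 the lowest in 13. The median log2 ratio of these genes to their DMSO mean was 0.82, 0.99, 0.56 and 0.73 in bromhexine replicates 1 to 4. Without bromhexine replicate 2 the number called higher was 18, and without DMSO replicate 3 it was 19. Over all tested genes the number called higher fell in the same fits, from 2602 to 2034 and 1856. DMSO replicate 3 also had the highest share of ribosomal RNA, 1.08% of its counts, against 0.216% to 0.485% in the other 11 libraries, and the part of this in the result was not tested.

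**Figure D2:**
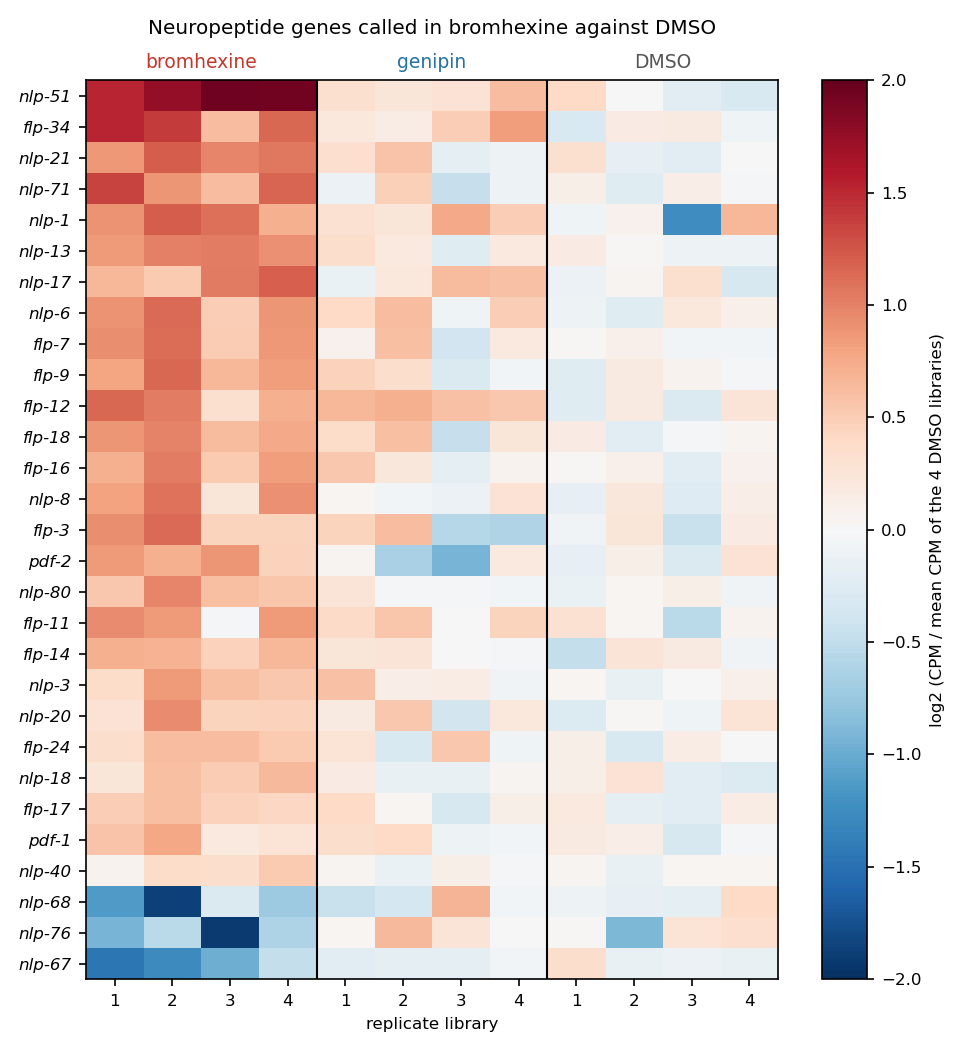
Colour shows the log2 ratio of CPM to the mean of the 4 DMSO libraries for the 29 neuropeptide genes called in bromhexine against DMSO (rows), in each bromhexine, genipin and DMSO library (columns). Rows of genes called higher are mostly red across the 4 bromhexine libraries, strongest in replicate 2 (median 0.99) and weakest in replicate 3 (median 0.56). Over the same genes the medians are 0.31, 0.25, -0.11 and 0.15 in genipin replicates 1 to 4. In the DMSO libraries they are -0.09 to 0.05.

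The largest increase was that of nlp-51 (WBGene00011997, chromosome II, 11319223 to 11319691 in WBcel235). It had 3.18, 3.74, 4.28 and 4.24 CPM in the bromhexine libraries, and 1.47, 1.12, 0.958 and 0.902 CPM in the DMSO libraries. The groups were far apart, with the lowest bromhexine library above the highest DMSO library. The log2 fold change was 1.79 ± 0.20 (edgeR, adjusted p = 1.32e-05), a 3.45-fold difference.

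The gene flp-34 (WBGene00019975, chromosome V, 1027891 to 1033404) encodes a peptide related to neuropeptide Y that takes part in aversive olfactory learning through the receptor NPR-11. It had 3.34, 3.07, 1.78 and 2.56 CPM with bromhexine, and 0.942, 1.3, 1.32 and 1.09 CPM with DMSO. Bromhexine replicate 3 was the lowest of its group and still above every DMSO library. The log2 fold change was 1.21 ± 0.24 (edgeR, adjusted p = 0.00146).

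Another ligand of NPR-11 is encoded by nlp-1 (WBGene00003739, chromosome X, 3727574 to 3728446), which signals from the olfactory neuron AWC to the interneuron AIA. It had 2.21, 2.76, 2.54 and 1.95 CPM with bromhexine, and 1.12, 1.26, 0.502 and 1.88 CPM with DMSO. DMSO replicate 3 was low and DMSO replicate 4 lay just under the lowest bromhexine library, so the groups were close without overlapping. The log2 fold change was 0.97 ± 0.29 (edgeR, adjusted p = 0.0162).

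Increases of about 2-fold were also found for nlp-21, nlp-71 and nlp-13. The gene nlp-21 (WBGene00003759, chromosome III, 11388624 to 11393262) had 7.75, 9.75, 8.28 and 8.75 CPM with bromhexine, and 5.3, 3.77, 3.6 and 4.25 CPM with DMSO, a log2 fold change of 1.02 ± 0.18 (edgeR, adjusted p = 0.000487). Its exons share 46 bases with subs-4 on the opposite strand, and whether counting used the strand is not given in the sources used here. The gene nlp-13 (WBGene00003751, chromosome V, 4236418 to 4238056) had 5.54, 6.19, 6.24 and 5.81 CPM with bromhexine, and 3.45, 3.14, 2.87 and 2.86 CPM with DMSO. Its bromhexine libraries were the tightest of these genes, and the log2 fold change was 0.95 ± 0.15 (edgeR, adjusted p = 0.0002). The scarce nlp-71 (WBGene00022254, chromosome IV, 6409557 to 6413582) had 1.49, 1.07, 0.891 and 1.3 CPM with bromhexine, and 0.628, 0.493, 0.639 and 0.564 CPM with DMSO, with 11 to 34 counts per library in these groups. Its log2 fold change was 1.02 ± 0.29 (edgeR, adjusted p = 0.0116). None of the calls of nlp-51, flp-34, nlp-1, nlp-21, nlp-13 and nlp-71 ended when any 1 of the 12 libraries was left out.

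**Figure D3:**
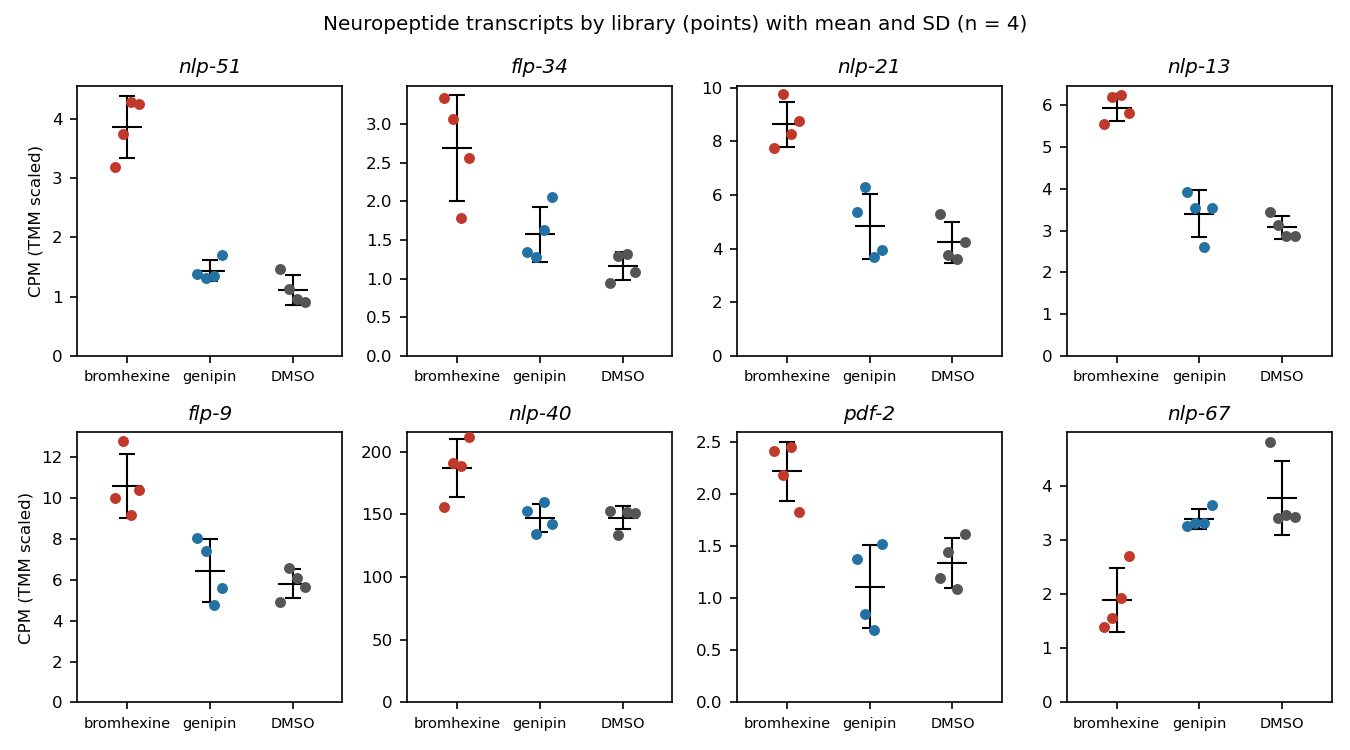
CPM of 8 neuropeptide genes in each library (points), with the mean and SD of the 4 libraries of a group (bars), for bromhexine, genipin and DMSO from left to right. In nlp-51, flp-34, nlp-21, nlp-13, flp-9, nlp-40 and pdf-2 every bromhexine point lies above every DMSO point, and in nlp-67 every bromhexine point lies below (1.39 to 2.71 against 3.41 to 4.81 CPM).

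Among the FMRFamide-like genes, 11 of 30 tested were called higher with bromhexine and 0 lower (36.7% and 0%, against 19% and 21.8% of all tested genes), and 25 of the 30 had a log2 fold change above 0, with a median of 0.44. The number lower was 0 also at an unadjusted p under 0.05 and by DESeq2 and limma voom. After flp-34 the largest increases were those of flp-9, flp-7, flp-12 and flp-18. The gene flp-9 (WBGene00001452, chromosome IV, 12754558 to 12757570) had 10, 12.8, 9.18 and 10.4 CPM with bromhexine, and 4.92, 6.59, 6.07 and 5.64 CPM with DMSO, a log2 fold change of 0.87 ± 0.17 (edgeR, adjusted p = 0.00102). The lowest bromhexine library lay well above the highest DMSO library. The gene flp-12 averaged 3.37 ± 0.818 CPM with bromhexine and 1.89 ± 0.364 CPM with DMSO, a log2 fold change of 0.83 ± 0.20 (edgeR, adjusted p = 0.00531). The gene flp-16 averaged 4.86 ± 0.71 CPM with bromhexine and 2.81 ± 0.27 CPM with DMSO (0.79 ± 0.17, edgeR adjusted p = 0.0029), and flp-14 averaged 9.77 ± 0.77 CPM with bromhexine and 6.3 ± 1.35 CPM with DMSO (0.64 ± 0.15, edgeR adjusted p = 0.00436). The gene flp-3 averaged 6.65 ± 1.62 CPM with bromhexine and 3.89 ± 0.779 CPM with DMSO (0.77 ± 0.27, edgeR adjusted p = 0.0329). That call ended without bromhexine replicate 1 or 2 or DMSO replicate 1 or 3 (adjusted p of 0.0716 to 0.107), while those of flp-9, flp-12, flp-14 and flp-16 held without any 1 library.

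Genes for peptides linked to fat stores or the intestine were among those that rose. The gene flp-7 encodes a peptide that is released from neurons and drives fat loss in the intestine through the receptor NPR-22. It averaged 3.22 ± 0.551 CPM with bromhexine and 1.76 ± 0.0923 CPM with DMSO, a log2 fold change of 0.87 ± 0.21 (edgeR, adjusted p = 0.00494). The highly expressed nlp-40 (WBGene00022276, chromosome I, 11495 to 16837) had 155.4, 190.9, 188.7 and 211.3 CPM with bromhexine, and 152.4, 133.6, 152.1 and 151.0 CPM with DMSO. Bromhexine replicate 1 lay only just above the highest DMSO library, and the other 3 bromhexine libraries were well above. The log2 fold change was small, 0.34 ± 0.08 (edgeR, adjusted p = 0.00551), a 1.27-fold difference. The intestine marker sums stand above, and their part in this difference was not tested. The gene flp-2, which is linked to arousal and stress signalling, did not pass the test (0.24 ± 0.28, edgeR adjusted p = 0.511).

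Of the genes for peptides that act in locomotion and foraging, 3 of 8 were called higher and 0 lower by edgeR (37.5% and 0%, against 19% and 21.8% of all tested genes). The number lower was 0 also at an unadjusted p under 0.05 and by DESeq2 and limma voom. The gene flp-18, whose peptides act through NPR-4 and NPR-5 on foraging and fat, averaged 8.41 ± 0.912 CPM with bromhexine and 4.75 ± 0.519 CPM with DMSO (log2 fold change 0.82 ± 0.18, edgeR adjusted p = 0.00289). The genes for the ligands of the receptor PDFR-1, which promotes roaming, both rose. The gene pdf-1 averaged 13.7 ± 2.56 CPM with bromhexine and 9.87 ± 1.46 CPM with DMSO (0.47 ± 0.16, edgeR adjusted p = 0.0303), and pdf-2 averaged 2.22 ± 0.282 CPM with bromhexine and 1.33 ± 0.237 CPM with DMSO (0.73 ± 0.25, edgeR adjusted p = 0.032). Both pdf calls were near the threshold: that of pdf-1 ended without bromhexine replicate 1 or 2 or DMSO replicate 3 or 4 (adjusted p of 0.0655 to 0.113), and that of pdf-2 without bromhexine replicate 1, 2 or 3 or DMSO replicate 1 or 3 (0.0594 to 0.0876). The genes that did not pass were flp-1 of the AVK interneurons (0.46 ± 0.18, edgeR adjusted p = 0.0574), flp-20 of touch neurons (0.53 ± 0.28, 0.145), flp-21, a ligand of NPR-1 (0.12 ± 0.29, 0.758), nlp-12, the cholecystokinin-like peptide of the stretch-sensitive neuron DVA (0.45 ± 0.24, 0.15), and nlp-49, a ligand of the arousal receptor SEB-3 (0.39 ± 0.23, 0.184).

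Of 6 genes for peptides that promote sleep, 5 were tested and 3 were called higher, where 19% of all tested genes were, and 2 of these 3 calls ended when single libraries were left out. The gene nlp-8, expressed in the stress-sleep neuron ALA, averaged 3.31 ± 0.755 CPM with bromhexine and 1.91 ± 0.309 CPM with DMSO (log2 fold change 0.79 ± 0.20, edgeR adjusted p = 0.00721). The gene flp-11 of the sleep neuron RIS had 6.67, 6.23, 3.39 and 6.23 CPM with bromhexine, and 4.29, 3.54, 2.37 and 3.65 CPM with DMSO. Bromhexine replicate 3 fell within the DMSO range, and the other 3 bromhexine libraries were above it. Its log2 fold change was 0.69 ± 0.22 (edgeR, adjusted p = 0.0216), a call that ended without bromhexine replicate 1 or 2 or DMSO replicate 3 (0.0582 to 0.0695). The gene flp-24, also of ALA, averaged 10.3 ± 0.877 CPM with bromhexine and 7.09 ± 0.963 CPM with DMSO (0.53 ± 0.17, edgeR adjusted p = 0.0195), and this call ended without bromhexine replicate 2 or 3 or DMSO replicate 2 (0.0505 to 0.0558). The third ALA gene, flp-13, was not called (0.43 ± 0.27, edgeR adjusted p = 0.218), nor was nlp-14 (0.28 ± 0.13, adjusted p = 0.105). The sixth gene, nlp-22, which promotes sleep of larvae, had 0 counts in all 12 libraries.

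Egg laying is inhibited by flp-17 and flp-10 through the receptor EGL-6 and by nlp-7, and promoted by nlp-3 of the HSN motor neurons. The gene nlp-3 averaged 5.58 ± 0.779 CPM with bromhexine and 3.69 ± 0.269 CPM with DMSO (log2 fold change 0.60 ± 0.16, edgeR adjusted p = 0.00925). The gene flp-17 averaged 3.84 ± 0.219 CPM with bromhexine and 2.73 ± 0.416 CPM with DMSO (0.48 ± 0.17, edgeR adjusted p = 0.0376), which was lost without bromhexine replicate 1, 2 or 3 or DMSO replicate 2 or 3 (0.0631 to 0.104). The genes flp-10 (-0.16 ± 0.14, edgeR adjusted p = 0.378) and nlp-7 (0.04 ± 0.22, adjusted p = 0.885) did not pass the test. Among these 4 listed genes, those called higher were therefore 1 that promotes and 1 that inhibits egg laying.

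The other nlp genes called higher were nlp-6, nlp-17, nlp-18, nlp-20 and nlp-80. The gene nlp-17 (WBGene00003755, chromosome IV, 13505270 to 13505762) had 1.85, 1.69, 2.41 and 2.68 CPM with bromhexine, and 1.08, 1.21, 1.46 and 0.94 CPM with DMSO, with no overlap and a log2 fold change of 0.89 ± 0.24 (edgeR, adjusted p = 0.0101). The gene nlp-6 averaged 6.21 ± 1.1 CPM with bromhexine and 3.4 ± 0.471 CPM with DMSO (0.87 ± 0.18, edgeR adjusted p = 0.00179), and nlp-80 averaged 5.92 ± 0.924 CPM with bromhexine and 3.69 ± 0.282 CPM with DMSO (0.69 ± 0.15, edgeR adjusted p = 0.00213). These 3 calls held without any 1 library. The gene nlp-20 averaged 11.6 ± 2.49 CPM with bromhexine and 7.86 ± 1.29 CPM with DMSO (0.56 ± 0.19, edgeR adjusted p = 0.0277), lost without bromhexine replicate 2 or DMSO replicate 1 or 3 (0.0684 to 0.11). The gene nlp-18 averaged 4.71 ± 0.577 CPM with bromhexine and 3.31 ± 0.611 CPM with DMSO (0.51 ± 0.16, edgeR adjusted p = 0.022), lost without bromhexine replicate 2 or DMSO replicate 3 or 4 (0.0579 to 0.071). By number, 9 of the 21 tested genes from nlp-1 to nlp-26 were called higher and 0 lower (42.9% and 0%, with 0 lower also at an unadjusted p under 0.05), while of the 29 tested from nlp-35 up 4 were called higher and 3 lower (13.8% and 10.3%). Over all tested genes these shares were 19% and 21.8%, and the difference between the number classes was not tested.

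The 3 genes called lower with bromhexine were all nlp genes. The gene nlp-67 (WBGene00011227, chromosome X, 16184369 to 16185722) had 1.39, 1.56, 1.92 and 2.71 CPM with bromhexine, and 4.81, 3.41, 3.47 and 3.42 CPM with DMSO. Every bromhexine library lay below every DMSO library, and the log2 fold change was -0.98 ± 0.21 (edgeR, adjusted p = 0.00198), a call that held without any 1 library. The gene nlp-68 (WBGene00011899, chromosome III, 10538081 to 10539163) had 0.667, 0.401, 1.2 and 0.879 CPM with bromhexine, and 1.36, 1.3, 1.28 and 1.92 CPM with DMSO. The groups did not overlap, by a narrow margin, and the log2 fold change was -0.89 ± 0.34 (edgeR, adjusted p = 0.0488). The gene nlp-76 (WBGene00045386, chromosome X, 12662478 to 12663903) had 0.616, 0.802, 0.312 and 0.764 CPM with bromhexine, and 1.19, 0.628, 1.41 and 1.47 CPM with DMSO. DMSO replicate 2 fell within the bromhexine range, and the log2 fold change was -0.91 ± 0.34 (edgeR, adjusted p = 0.0449). Its exons share 67 bases with nhr-17 on the same strand, which had 13669 counts over the 12 libraries where nlp-76 had 305, so its counts are uncertain. The call of nlp-68 ended without any DMSO library, without bromhexine replicate 1, 2 or 4, and without genipin replicate 2 or 4 (0.0501 to 0.138). That of nlp-76 ended without bromhexine replicate 1 or 3, DMSO replicate 1, 3 or 4, or genipin replicate 1, 3 or 4 (0.0514 to 0.128). Without DMSO replicate 1, 3 or 4, bromhexine replicate 1 or genipin replicate 4, the number called lower was 1, nlp-67.

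The other 54 tested genes were not called with bromhexine. Of these, flp-1, flp-28, nlp-14 and nlp-16, singled out after their values were seen, had all 4 bromhexine libraries above all 4 DMSO libraries. The abundant flp-28 had 18.4, 18.1, 20.4 and 22.3 CPM with bromhexine, and 18, 10.9, 17.4 and 16.5 CPM with DMSO. Only a narrow gap separated the groups, and its log2 fold change was 0.33 ± 0.15 (edgeR, adjusted p = 0.0855). The second most abundant gene, nlp-36, averaged 33.3 ± 3.32 CPM with bromhexine and 30.9 ± 2.5 CPM with DMSO (0.11 ± 0.10, edgeR adjusted p = 0.394), flp-22 had a log2 fold change of 0.14 ± 0.13 (adjusted p = 0.419) and flp-6 one of -0.15 ± 0.18 (adjusted p = 0.511). The gene snet-1, a peptide that regulates learning about pheromones and is degraded by the neprilysin NEP-2, averaged 4.65 ± 0.883 CPM with bromhexine and 3.3 ± 0.981 CPM with DMSO (0.50 ± 0.21, edgeR adjusted p = 0.0672). The 12 genes that were not tested had 0 (nlp-22), 1 (nlp-23) or 14 to 110 counts over the 12 libraries, the last being flp-23, nlp-45, nlp-46, nlp-52, nlp-60, nlp-62, nlp-63, nlp-69, nlp-70 and nlp-78.

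In genipin against DMSO, 0 of the 83 tested genes were called by edgeR, where 0.0365% of all tested genes were called (0.0292% higher and 0.0073% lower). DESeq2 and limma voom also called 0, and the count was 0 without genipin replicate 1. At an unadjusted p under 0.05 there were 6 genes (7.23%), against 4.9% of all tested genes. By edgeR, DESeq2 and limma voom 0 of the 18 neuron markers were called, with 3 higher at an unadjusted p under 0.05, and they summed to 571.4 to 619.9 CPM with genipin and 558.5 to 591.1 CPM with DMSO. The median log2 fold change was 0.09 over the 83 neuropeptide genes, and 56 of them (67.5%, background 49.6%) were above 0. The summed level was 465.1, 436.3, 442.0 and 433.3 CPM in the genipin libraries and 448.1, 398.9, 421.6 and 437.9 CPM in the DMSO libraries. These ranges overlapped.

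In 4 genes, singled out after their values were seen, all genipin libraries lay above all DMSO libraries (4.82%, background 1.5%), and in 0 genes below (background 1.58%). The gene flp-12 had 2.99, 3.11, 2.85 and 2.76 CPM with genipin, and 1.6, 2.15, 1.55 and 2.25 CPM with DMSO, a log2 fold change of 0.63 ± 0.20 (edgeR, adjusted p = 0.791). The gene nlp-14 had 8.34, 10.7, 9.7 and 7.46 CPM with genipin, and 6.91, 7.18, 6.8 and 6.99 CPM with DMSO (0.37 ± 0.13, edgeR adjusted p = 0.892). In flp-12 the genipin libraries lay closer together than the DMSO libraries, and in nlp-14 the DMSO libraries lay closer together than the genipin libraries. Without genipin replicate 1 the log2 fold change was 0.61 for flp-12 and 0.41 for nlp-14. The gene flp-8 averaged 2.45 ± 0.469 CPM with genipin and 1.66 ± 0.106 CPM with DMSO (0.56 ± 0.20, edgeR adjusted p = 0.892). The scarce nlp-101 averaged 0.569 ± 0.1 CPM with genipin and 0.232 ± 0.136 CPM with DMSO (1.24 ± 0.44, edgeR adjusted p = 0.892), with 2 to 16 counts per library in these groups. The other 2 genes under the unadjusted threshold were flp-1 at 0.43 ± 0.18 and flp-21 at -0.72 ± 0.31 (edgeR, adjusted p = 0.989 for each).

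The 2 compounds were compared with the same 4 DMSO libraries, so an error in those libraries moves both fold changes together. For nlp-51 the log2 fold change was 1.79 ± 0.20 with bromhexine and 0.37 ± 0.21 with genipin, for flp-34 it was 1.21 ± 0.24 and 0.45 ± 0.25, and for flp-12 it was 0.83 ± 0.20 and 0.63 ± 0.20, all against DMSO. For nlp-40 it was 0.34 ± 0.08 with bromhexine and 0.00 ± 0.08 with genipin.

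**Figure D4:**
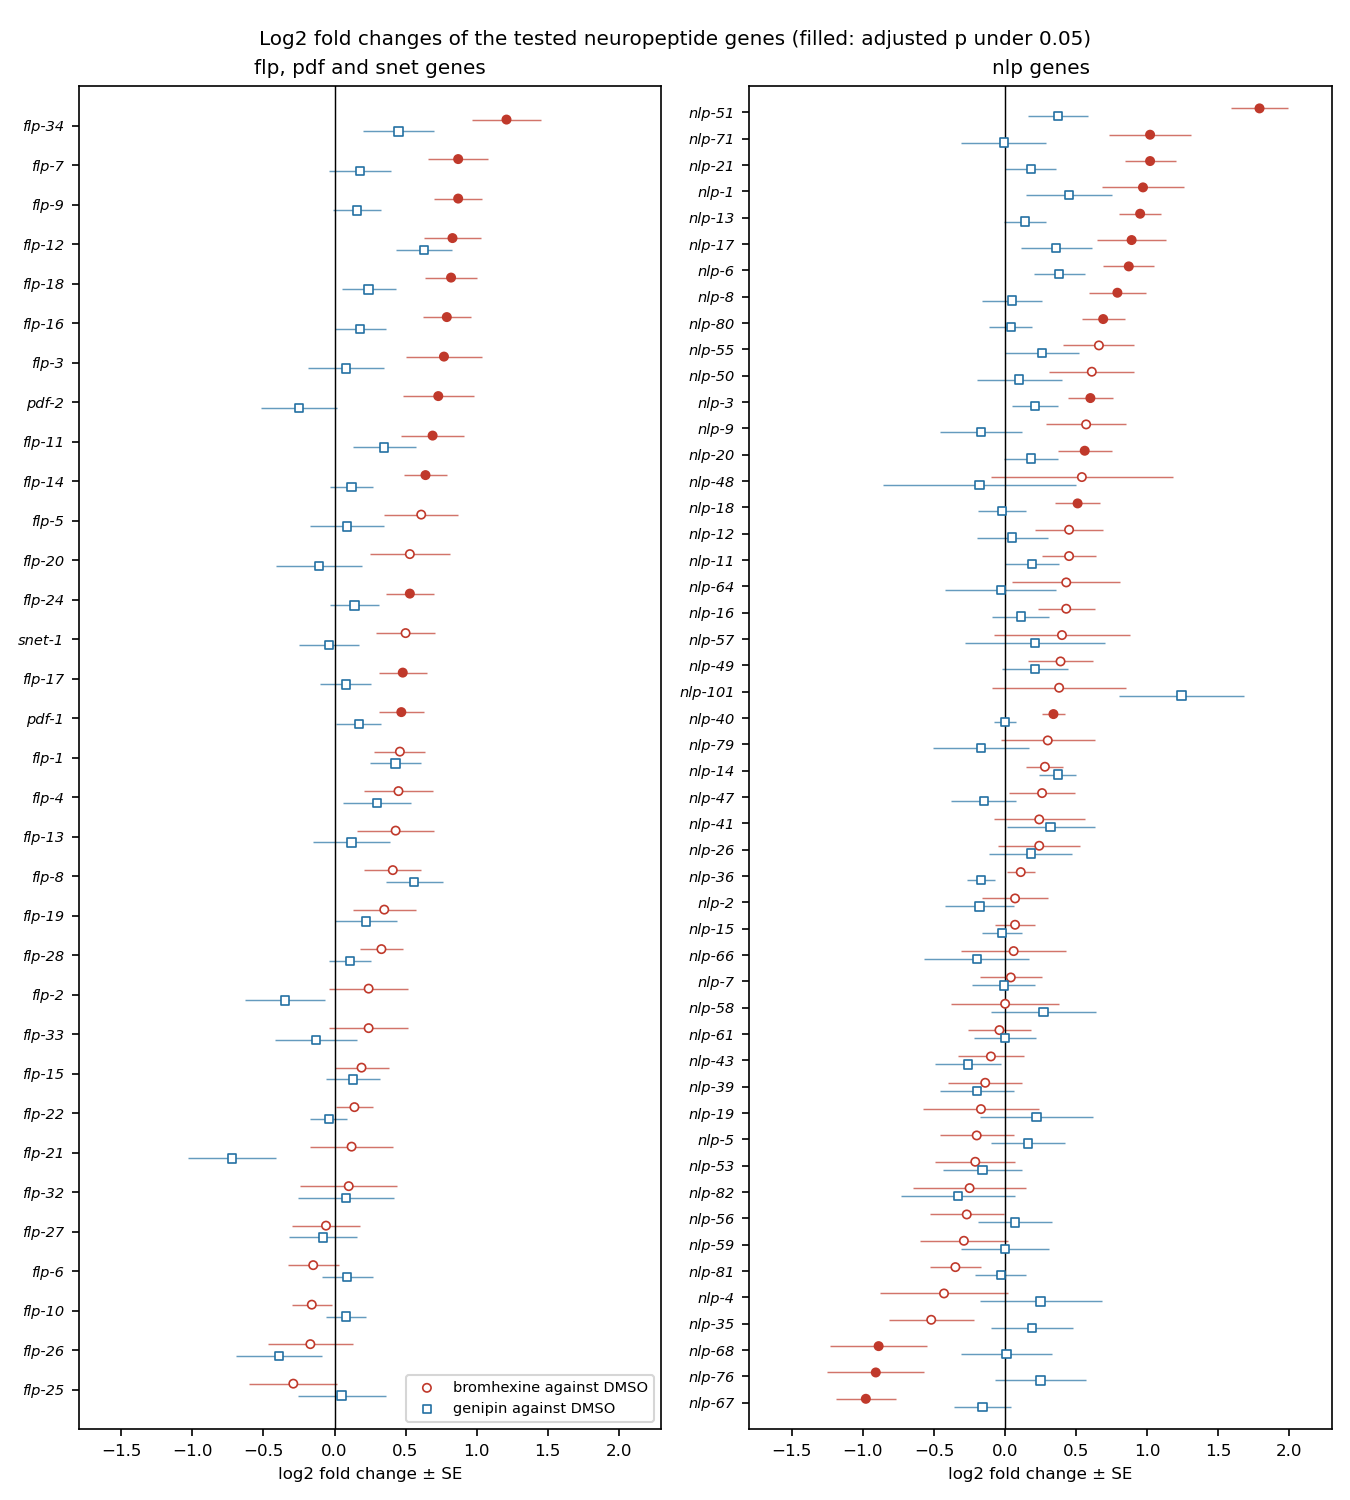
Log2 fold change against DMSO with its standard error for the 83 tested neuropeptide genes, for bromhexine (circles) and genipin (squares); filled symbols have an adjusted p under 0.05, and positive values are higher with the compound. Filled circles run from nlp-51 at 1.79 to nlp-67 at -0.98, and no square is filled.

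Set directly against each other, the compounds differed in 20 of the 83 genes, with the doses unequal at 100 µM bromhexine and 200 µM genipin. With bromhexine, 18 genes (21.7%, background 15%) were higher than with genipin and 2 (2.41%, background 19.5%) were lower, by edgeR at an adjusted p under 0.05. The log2 fold change was above 0 in 63 of the 83 (75.9%, background 50.4%), with a median of 0.28. The count higher was 18 also without genipin replicate 1, when 3 were called lower, but 11 without bromhexine replicate 2 and 12 without genipin replicate 3. Over all tested genes the number higher fell from 2057 to 1651, 1370 and 1301 in these fits, in the same order. Of the 26 genes higher with bromhexine than with DMSO, 16 were also higher than with genipin. This overlap was not compared with that of all genes called higher against DMSO, so it is not read as particular to these genes. The clearest was nlp-51, with 3.18, 3.74, 4.28 and 4.24 CPM with bromhexine and 1.38, 1.32, 1.35 and 1.71 CPM with genipin (log2 fold change 1.42 ± 0.20, edgeR adjusted p = 0.000109). The groups were far apart, and the genipin libraries overlapped with those of DMSO.

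By size the next differences were those of nlp-76, nlp-71, pdf-2, flp-21, nlp-21 and nlp-67. The gene nlp-71 averaged 1.19 ± 0.261 CPM with bromhexine and 0.577 ± 0.165 CPM with genipin (1.03 ± 0.29, edgeR adjusted p = 0.0139), and pdf-2 averaged 2.22 ± 0.282 CPM with bromhexine and 1.11 ± 0.397 CPM with genipin (0.98 ± 0.26, edgeR adjusted p = 0.0097). The gene nlp-21 differed by 0.84 ± 0.18 (edgeR, adjusted p = 0.00234) and nlp-13 by 0.80 ± 0.15 (adjusted p = 0.000813). The gene flp-34 differed by 0.76 ± 0.24 (edgeR, adjusted p = 0.0237), which was lost without bromhexine replicate 1 or 2 or genipin replicate 1 or 2 (0.0533 to 0.0779), and nlp-8 by 0.74 ± 0.20 (edgeR, adjusted p = 0.0126). Both genes that were lower than with genipin had also been lower than with DMSO: nlp-67 averaged 1.89 ± 0.59 CPM with bromhexine and 3.39 ± 0.181 CPM with genipin (-0.82 ± 0.21, edgeR adjusted p = 0.00789), and nlp-76 averaged 0.623 ± 0.223 CPM with bromhexine and 1.4 ± 0.306 CPM with genipin (-1.15 ± 0.34, edgeR adjusted p = 0.0172). The call of nlp-76 ended without bromhexine replicate 3 (0.0533). The genes called only between the 2 compounds were flp-21 and nlp-36. The gene flp-21 had 1.23, 1.07, 1.38 and 1.61 CPM with bromhexine and 0.669, 0.98, 0.933 and 0.389 CPM with genipin, while its DMSO libraries (0.94 to 1.6 CPM) overlapped with both (0.84 ± 0.31, edgeR adjusted p = 0.0459). That call ended in 10 of the 12 fits with 1 library left out, all but those without DMSO replicate 1 or genipin replicate 2 (0.0525 to 0.127), and that of nlp-36 (0.28 ± 0.10, edgeR adjusted p = 0.0418) in 8 of 12, all but those without DMSO replicate 2 or 3, bromhexine replicate 1 or genipin replicate 1 (0.0507 to 0.117).

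Of 11 genes for cleavage, trimming and amidation, 6 were called higher and 2 lower than with DMSO (54.5% and 18.2%, against 19% and 21.8% of all tested genes), and their median log2 fold change was 0.30. The gene egl-21, the carboxypeptidase E that trims the cut peptides, had 44.2, 49.3, 37.2 and 39.5 CPM with bromhexine, and 25.7, 26.9, 24.5 and 27.5 CPM with DMSO (log2 fold change 0.70 ± 0.10, edgeR adjusted p = 0.000111). The gene egl-3, the proprotein convertase PC2, had 58.5, 63.9, 48.1 and 55.1 CPM with bromhexine, and 41.7, 39.8, 34.9 and 40.8 CPM with DMSO (0.52 ± 0.11, edgeR adjusted p = 0.00176). In both genes every bromhexine library lay above every DMSO library. The amidation enzymes pgal-1 (0.65 ± 0.15) and pghm-1 (0.61 ± 0.16), the convertase aex-5 (0.47 ± 0.12) and sbt-1, the 7B2-like chaperone of PC2 (0.30 ± 0.11), were also higher. The furin-type convertase kpc-1 (-0.44 ± 0.09) and the carboxypeptidase D-like cpd-2 (-0.54 ± 0.18) were lower. Not called were the amidation enzyme pamn-1 (-0.24 ± 0.11, edgeR adjusted p = 0.1), bli-4 (0.19 ± 0.08, 0.057) and cpd-1 (-0.09 ± 0.09, 0.415). The call of sbt-1 (edgeR, adjusted p = 0.0358) ended without bromhexine replicate 2 or 4 or DMSO replicate 1, 3 or 4, with an adjusted p of up to 0.107. That of cpd-2 (0.0229) ended without bromhexine replicate 2 or DMSO replicate 1 or 3, with an adjusted p of up to 0.0755.

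Genes for dense core vesicles moved both ways, with 6 of 15 called higher and 5 lower with bromhexine, where 19% and 21.8% of all tested genes were, and their sums overlapped at 656.6 to 680.0 CPM with bromhexine and 657.6 to 680.3 CPM with DMSO. The largest change was in hid-1, needed for vesicle formation at the Golgi, with 38.0, 35.3, 33.8 and 47.1 CPM with bromhexine and 75.5, 62.5, 82.1 and 70.1 CPM with DMSO (log2 fold change -0.91 ± 0.11, edgeR adjusted p = 2.71e-05). Other genes that were lower were vps-50 (-0.53 ± 0.10), vps-52 (-0.43 ± 0.11), tbc-8 (-0.37 ± 0.14) and unc-108 (-0.14 ± 0.06), of endosomal tethering and the RAB-2 pathway. The genes that were higher were ida-1, a vesicle membrane protein (0.62 ± 0.11), the kinesin unc-104 that carries vesicles along axons (0.57 ± 0.17), cccp-1 (0.54 ± 0.16), pkc-1, a protein kinase C that promotes release (0.41 ± 0.09), eipr-1 (0.26 ± 0.10) and vps-51 (0.16 ± 0.05). The number called lower was 3 without DMSO replicate 1, 3 or 4, without bromhexine replicate 1, 2 or 3, and without genipin replicate 4, and 3 by DESeq2. The call of unc-108 ended without any DMSO library, bromhexine replicate 1, 2 or 3 or genipin replicate 4 (edgeR adjusted p of up to 0.125). That of tbc-8 ended without any bromhexine library, DMSO replicate 1, 3 or 4 or genipin replicate 2 or 4 (up to 0.124), and that of eipr-1 without any DMSO library, bromhexine replicate 1, 2 or 3 or genipin replicate 1 or 4 (up to 0.131). That of vps-51 ended without bromhexine replicate 1 or 3 or DMSO replicate 1 (up to 0.0731).

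Of 23 neprilysin genes, whose products degrade peptides outside cells, 11 were tested, and 4 were called higher and 1 lower with bromhexine (36.4% and 9.09%, against 19% and 21.8% of all tested genes). Those that were higher were nep-11 (0.64 ± 0.21), nep-17 (0.60 ± 0.13), nep-2 (0.50 ± 0.16) and nep-22 (0.49 ± 0.11), and nep-1 was lower (-0.57 ± 0.09). Without bromhexine replicate 4 or DMSO replicate 2 the number higher was 2, and without bromhexine replicate 4 the number lower was 3. The calls of nep-11 and nep-2 also ended without DMSO replicate 1 (nep-11) or DMSO replicate 3 (nep-2), with an edgeR adjusted p of up to 0.0783 and 0.0624.

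Of 107 genes for peptide receptors 57 were tested, and edgeR called 0 higher and 11 lower with bromhexine (0% and 19.3%, against 19% and 21.8% of all tested genes). Most of the 57 averaged under 3 CPM. Of all genes tested under 1 CPM, 4.95% were called higher and 14.9% lower, and between 1 and 3 CPM 9.49% and 25.3%. At an unadjusted p under 0.05 there were 2 higher and 14 lower, and DESeq2 called 0 and 10, limma voom 1 and 10. Receptor transcripts were scarce and summed to 76.4 to 89.8 CPM with bromhexine and 92.9 to 99.9 CPM with DMSO. The receptor npr-11, shared by the peptides of flp-34 and nlp-1, had 0.616, 0.891, 0.713 and 1.15 CPM with bromhexine, and 2.51, 2.06, 2.1 and 1.99 CPM with DMSO. It was lower in every bromhexine library, with a log2 fold change of -1.35 ± 0.26 (edgeR, adjusted p = 0.00107), where those of flp-34 and nlp-1 were 1.21 ± 0.24 and 0.97 ± 0.29. The others of the 4 with the smallest p were npr-34 (-1.03 ± 0.19), trhr-1 (-0.78 ± 0.17) and npr-15 (-1.22 ± 0.28), and these 4 calls held without any 1 library. The number of receptors called lower was 7 without bromhexine replicate 2 or without DMSO replicate 1, and 1 receptor was called higher without DMSO replicate 3, DMSO replicate 4 or genipin replicate 2. With genipin, edgeR, DESeq2 and limma voom called 0 genes of the enzyme, vesicle, neprilysin and receptor lists against DMSO, and 1, 0, 3 and 4 of them had an unadjusted p under 0.05.

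**Figure D5:**
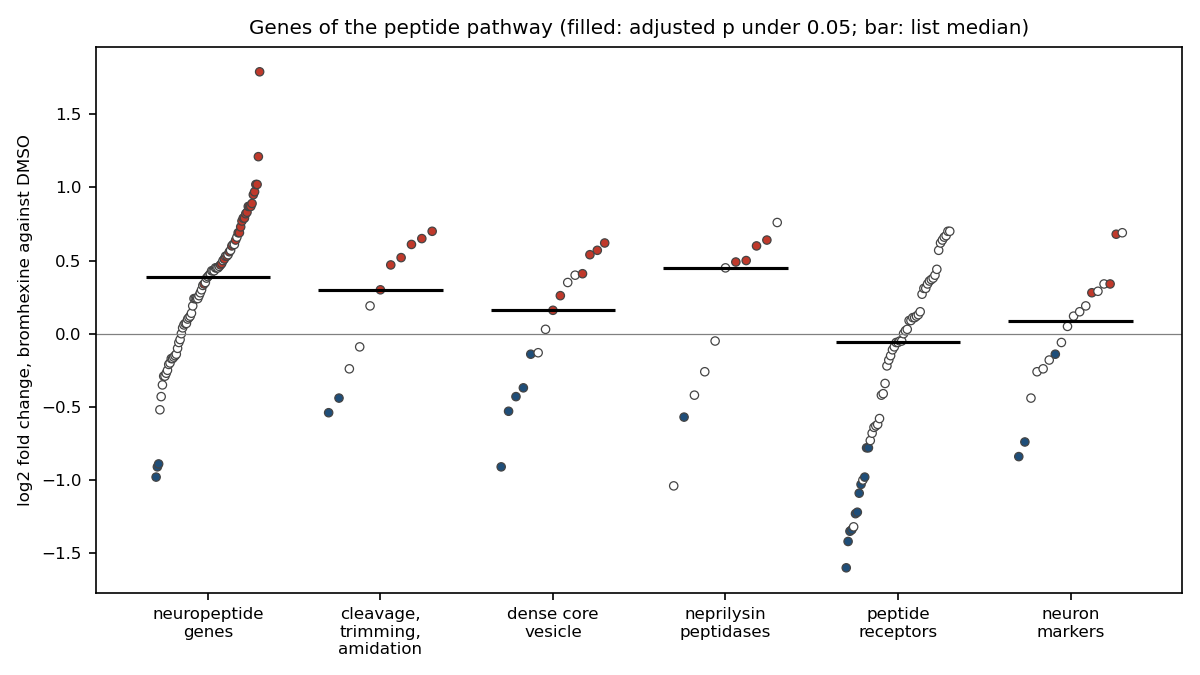
Log2 fold change in bromhexine against DMSO of each tested gene of the neuropeptide set, 4 lists of the peptide pathway and the neuron markers; filled points have an adjusted p under 0.05 and bars mark medians. The median is 0.39 for the neuropeptide genes and 0.30 for the processing enzymes, and the filled points among receptors all lie below 0.

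Of the 26 genes called higher, 17 had a mean of at least 3 CPM. Among genes at or above that mean over the 12 libraries, 17 of 35 neuropeptide genes were called higher and 1 lower with bromhexine (48.6% and 2.86%), against 23.9% and 22.4% of all genes at that level. Between 1 and 3 CPM these were 8 and 2 of 35 (22.9% and 5.71%), against 9.49% and 25.3% of all genes. Under 1 CPM, 1 of 13 tested was called higher and 0 lower (7.69% and 0%), against 4.95% and 14.9% of all genes at that level, and 0 were lower also at an unadjusted p under 0.05. Chromosome X holds 34 of the 95 genes. Of the 31 tested there, 9 were called higher and 2 lower (29.0% and 6.45%), where 13.2% and 32.5% of all tested genes of the X were. On the autosomes 17 of 52 were called higher and 1 lower (32.7% and 1.92%), where 20.0% and 19.9% of all tested autosomal genes were. Exons of 18 of the 95 genes overlap with those of another gene, among them 7 that were called (flp-11, flp-16, flp-17, nlp-17, nlp-21, nlp-71 and nlp-76), with 7 to 67 shared bases.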

How the data were processed

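Total transcript levels were read by sequencing RNA from whole animals, with paired reads of 150 nt. FastQC, STAR 2.7.11b and RSEM 1.3.3 and the build WBcel235 are listed per the submitters' processing notes. The authors deposited expected counts per gene made with RSEM, per the submitters' processing notes, with no normalization. In these, 2.06% of the values carry decimals, since RSEM divides reads between genes that match them equally. Annotation release, strand setting and trimming: not given in the sources used here. For this reason counts of overlapping genes were treated as uncertain. All 46926 genes were found in Ensembl release 115 of WBcel235, which gave names, positions and exon lengths.

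Counts were rounded to whole numbers and fitted with edgeR 4.0.16 in R 4.3.3. The filter filterByExpr on the 3 groups left 13695 genes, libraries were scaled by TMM, and 1 quasi-likelihood fit of all 12 libraries with the group as its only term gave the 3 comparisons. Benjamini-Hochberg adjustment covered every tested gene, with calls at an adjusted p under 0.05. The standard error of a log2 fold change is its size over the root of F. The fit's biological coefficient of variation came to 12.1%. Totals per library were 20.3 to 28.1 M counts, so 3 counts, the limit that a count of 0 allows, are 0.107 to 0.147 CPM, and such limits cover counting error only. Replicates of a group differed by a chi-squared statistic of 6.19 to 31.41 per degree of freedom, far above the 1 of libraries that differ by counting error alone. The procedure was tested on simulated counts with known changes. The simulation gave all genes the same spread and changed few of them, unlike these data, so it checks only that the procedure runs as intended.

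Every called neuropeptide gene is named for each compound against DMSO, up to 10 for bromhexine against genipin by size of change, and the 10 highest RPKM levels in DMSO, with a set of genes of known function. The pathway, role and tissue marker lists were drawn up by hand, and the marker opt-2 matched no gene. The members and the lists were chosen with earlier results of these data known. The alternatives were DESeq2 1.42.0, limma voom (limma 3.58.1), RLE and upper quartile scaling, no filter, a minimum of 1 CPM in 4 libraries, fits of only the 8 libraries compared, a block for the replicate number, an adjusted p under 0.01, and each library left out.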

Additional observations from a re-analysis of the deposited data

Results flagged for a closer look

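Of the 132 groups of 4 libraries examined, over the named genes, 7 had a library far from the other 3. This is close to the rate that chance alone gives, about 1 group in 20. In the sleep peptide gene flp-11, bromhexine replicate 3 was low at 3.39 CPM, with the other bromhexine libraries at 6.23 to 6.67 CPM. In nlp-80, bromhexine replicate 2 was high at 7.3 CPM, with the others at 5.39 to 5.57 CPM, and genipin replicate 1 was high at 4.41 CPM, with the others at 3.54 to 3.62 CPM. In nlp-51, genipin replicate 4 was high at 1.71 CPM, with the others at 1.32 to 1.38 CPM. Among DMSO libraries, replicate 2 was low for nlp-40 at 133.6 CPM, with the others at 151.0 to 152.4 CPM, replicate 1 was high for nlp-67 at 4.81 CPM, with the others at 3.41 to 3.47 CPM, and replicate 4 was high for nlp-68 at 1.92 CPM, with the others at 1.28 to 1.36 CPM. The calls of nlp-40, nlp-51, nlp-67 and nlp-80 in bromhexine against DMSO held without the library concerned, while that of nlp-68 was lost without DMSO replicate 4 (edgeR adjusted p = 0.138), as it was without 8 other libraries in turn (0.0501 to 0.136). The call of flp-11 held without bromhexine replicate 3.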

How the results depend on the processing

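Under every alternative the tested neuropeptide genes kept more calls higher than lower with bromhexine, and no named gene that was called changed direction. Against DMSO 26 were higher and 3 lower, against 15 and 1 at an adjusted p under 0.01 and 1 lower with no filter. With no filter the 20410 genes of that fit gave 2234 higher and 2951 lower. With each library left out in turn the counts of neuropeptide genes ran from 18 to 29 higher and 1 to 3 lower. Over all tested genes these fits gave 1856 to 2921 higher and 2383 to 3333 lower. In bromhexine against genipin the neuropeptide counts were 18 and 2, against 7 and 1 at an adjusted p under 0.01. They were 11 to 22 and 2 to 3 with each library left out, the 11 without bromhexine replicate 2. Over all tested genes these fits gave 1301 to 2578 and 2000 to 3094. Shares of all genes at an adjusted p under 0.01 were not counted. Genipin against DMSO gave 0 neuropeptide genes under all alternatives. Of the 29 genes called against DMSO, 19 stayed called with any 1 library left out and 16 under every alternative that tested them. Upper quartile scaling gave 25 higher and 3 lower, and over all genes it moved the split from 2602 higher and 2979 lower to 2034 and 3371. The fit with the replicate number as a block gave 31 higher and 2 lower in bromhexine against DMSO, 0 in genipin against DMSO and 20 higher and 3 lower in bromhexine against genipin. Over all tested genes the block fit gave 2551 higher and 2893 lower in bromhexine against DMSO. In genipin against DMSO it gave 3 and 2, and in bromhexine against genipin 1971 and 2571. The labels do not say what the numbers share. Same-numbered libraries correlated above 0.1 in 0 of 8 pairs with a bromhexine library, but in 3 of 4 pairs of genipin and DMSO (replicates 2, 3 and 4, at 0.296, 0.247 and 0.18, with 0.015 for replicate 1), where different numbers reached at most 0.132. As not every pair passed 0.1, the numbers were not taken to pair the samples. The 12 genes not tested had 0 to 18 counts per library, so depth limits what can be said of them. No cause of these shifts was tested.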

Other observations

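Among the 12 neuropeptide genes with too few counts to be tested, nlp-45 had 51 counts in all. It had 0.41, 0.267, 0.535 and 0.191 CPM in the bromhexine libraries, 0.0446, 0.0852, 0 and 0.0389 CPM in the genipin libraries, and 0.0698, 0.179, 0.228 and 0.188 CPM in the DMSO libraries. It was singled out after its values were seen, all genipin values lie at or under the limit of 3 counts, and no difference was tested.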
